A study of Homo sapiens with 8 samples.

Results

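The genes described here encode antioxidant and glutathione enzymes: catalase, peroxiredoxins, glutathione peroxidases, thioredoxins and their reductases, glutaredoxins, glutathione transferases and heme oxygenases, together with the regulators NFE2L2 and KEAP1. They were picked by gene symbol alone, and 48 of the 14884 genes named on the array belonged to the set. Of the protein-coding genes that the same symbols cover, 9 had no probe set named here and were not analysed (GCLC, GCLM, GSTZ1, NQO1, NQO2, PRDX5, SOD1, SOD2 and SOD3). The symbols GSTT2 and GSTTP2 were left out because RefSeq lists both as pseudogenes.

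Cells produce hydrogen peroxide and other oxidants in respiration, protein folding and oxidase reactions. Catalase splits hydrogen peroxide in peroxisomes, while peroxiredoxins and glutathione peroxidases reduce peroxides with electrons that thioredoxin and glutathione draw from NADPH. Glutathione transferases couple glutathione to electrophiles, and the transcription factor NRF2, encoded by NFE2L2 and held down by KEAP1, drives many of these genes through antioxidant response elements in their promoters.

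The samples were cells of the established line MOLM-14, which derives from a human acute myeloid leukaemia of monocytic type. In 4 samples (shCD39) the cells expressed a hairpin against ENTPD1, which encodes CD39, an ectoenzyme that breaks down ATP outside the cell, and a scrambled hairpin in the other 4 (shCTRL). Both groups received doxycycline for 72 h to switch the hairpins on, so the drug is shared by all 8 arrays. Per the labels, the RNA came from clones and the samples within a group are technical replicates. The p-values therefore measure only the spread between these arrays.

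ENTPD1 read 2.42, 2.14, 2.72 and 2.95 on shCD39 arrays 1 to 4, against 3.16, 2.88, 3.21 and 4.12 on the shCTRL arrays (log2 RMA values). The groups overlapped, and the log2 fold change of -0.79 did not pass (SE 0.25, limma adjusted p = 0.178). It was -0.92 without shCD39 array 4 (limma adjusted p = 0.0856) and -0.53 without shCTRL array 4 (limma adjusted p = 0.233). ENTPD1 was dim: its mean over all arrays lay below that of the median gene (4.30), so the size of its change is uncertain. The array labelled shCD39 4 correlated less with the other shCD39 arrays (mean r = 0.979) than with the 4 shCTRL arrays (mean r = 0.984, over all probe sets), so results that turn on it are also given without it. Of the markers of the labelled monocytic type, LYZ (lysozyme) averaged 10.04 in shCD39 and 8.98 in shCTRL, and CD68 averaged 9.19 in shCD39 and 9.11 in shCTRL. CD14 was dim, at 2.47 in shCD39 and 2.38 in shCTRL. Of 14 measured monocyte and macrophage markers, all 14 had a higher mean in shCD39, 0 passed the threshold by limma, and 7 of the 14 had an unadjusted p under 0.05, against 14.7% of all genes. Without shCD39 array 4, 5 of the 14 passed, all higher (CSF1R, S100A8, S100A9, LYZ and TYROBP), where 423 of all 14884 genes did (2.84%). Without shCTRL array 4, S100A9 passed, where 48 of all genes did (0.322%). The mean level of the 14 markers per array ran from 5.30 to 5.86 in shCD39 and from 4.94 to 5.21 in shCTRL. The part of this shift in the results below was not tested. The mean level of 7 T and NK cell markers ran from 4.19 to 4.47 in shCD39 and from 4.01 to 4.24 in shCTRL. For 5 markers of fibroblasts and epithelium, all 5 with a higher mean in shCD39 and 0 past the threshold by limma (0 at an unadjusted p under 0.05), it ran from 4.51 to 4.68 in shCD39 and from 4.24 to 4.48 in shCTRL, without overlap.

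The promoters of 3 genes of the set are shown because these genes were higher on every shCD39 array than on any shCTRL array and had an entry in the promoter table. Each window comes from RefSeq (GRCh38.p14) and holds 250 bases before the start of transcription and 50 after it, on the strand of the gene. Capitals mark matches on either strand to the CCAAT box (CCAAT), the E-box (CACGTG) and the core of the antioxidant response element (TGACNNNGC). The CAT window is chr11:34438684-34438983 on the plus strand, the GPX1 window chr3:49358304-49358603 on the minus strand, and the GSTP1 window chr11:67583562-67583861 on the plus strand.
CAT: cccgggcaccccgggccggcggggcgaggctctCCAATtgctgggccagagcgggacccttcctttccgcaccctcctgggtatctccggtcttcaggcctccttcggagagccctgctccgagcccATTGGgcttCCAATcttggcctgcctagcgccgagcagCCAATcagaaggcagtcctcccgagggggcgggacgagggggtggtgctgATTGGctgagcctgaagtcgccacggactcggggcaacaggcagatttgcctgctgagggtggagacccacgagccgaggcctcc
GPX1: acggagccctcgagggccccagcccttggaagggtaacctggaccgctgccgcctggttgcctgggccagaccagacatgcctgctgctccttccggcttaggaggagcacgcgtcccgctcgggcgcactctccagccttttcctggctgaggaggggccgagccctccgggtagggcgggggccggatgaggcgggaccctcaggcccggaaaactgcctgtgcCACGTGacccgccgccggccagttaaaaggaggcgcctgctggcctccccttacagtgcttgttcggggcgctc
GSTP1: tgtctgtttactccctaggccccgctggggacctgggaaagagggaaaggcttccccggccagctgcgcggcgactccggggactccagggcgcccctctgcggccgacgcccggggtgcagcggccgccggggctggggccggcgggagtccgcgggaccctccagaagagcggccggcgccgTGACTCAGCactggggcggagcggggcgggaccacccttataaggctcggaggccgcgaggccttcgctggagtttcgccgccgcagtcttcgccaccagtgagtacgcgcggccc

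The 3 windows held different motifs. CAT had 5 CCAAT boxes, GPX1 had 1 E-box and GSTP1 had 1 antioxidant response element core, and no match overlapped another. A promoter window was found for 39 of the 48 genes. The antioxidant response element core occurred in 9 of these 39 (23.1%), namely GPX2, GSTA4, GSTM1, GSTM5, GSTO1, GSTP1, KEAP1, MGST1 and TXNRD1, against 16.1% of the 27305 genes with a window. CCAAT occurred in 41.0% of the 39 genes and 39.7% of all genes, and the E-box in 17.9% and 8.77%. These shares describe letters in the windows and were not tested.

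Across the set, catalase stood apart and most of the remaining genes differed little between the hairpins. No gene of the 48 passed an adjusted p of 0.05, where 14 of all 14884 genes did (0.0941%). At an unadjusted limma p under 0.05 there were 6 of 48 (12.5%), against 14.7% of all genes. In 5 of the 48 (10.4%) the shCD39 values and the shCTRL values did not overlap, against 7.85% of all genes. These 5 were CAT, GPX1 and GSTP1, which were higher in shCD39 (3.61% of all genes were of this kind), and GLRX2 and GLRX3, which were lower (4.23% of all genes). All 3 shares lie near those of the whole array. The median log2 fold change was 0.04 over the 48 genes and 0.01 over all genes, with 29 means higher (60.4%, against 52.0% of all genes) and 19 lower in shCD39. Of the genes of the set above the median gene 48.3% had a higher mean, and of those not above it 78.9%. The number of higher means was 35 with quantile normalization and 26 without shCD39 array 3.

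**Figure D1:**
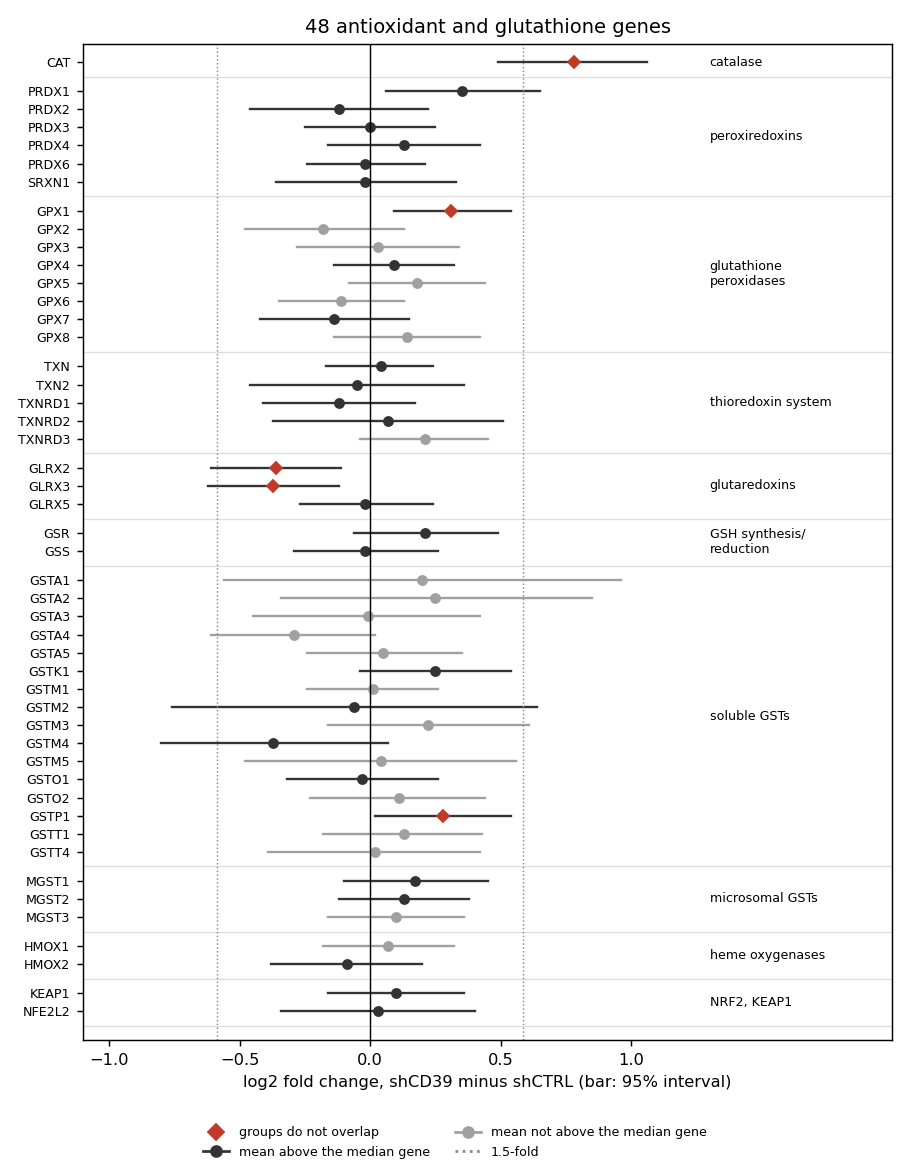
Log2 fold change (shCD39 minus shCTRL, x axis) of the 48 genes, grouped by role, with the 95% interval of the limma fit as a bar. CAT is the point farthest right at 0.78, and the glutaredoxins GLRX2 and GLRX3 lie at -0.36 and -0.37. Dotted lines mark a 1.5-fold change, and grey genes have a mean not above that of the median gene.

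The intervals bound what could have been missed only against the spread between these arrays, which are technical replicates. They set no bound across cultures or clones. The 95% interval of the log2 fold change, unadjusted for the number of genes, lay within 1.5-fold in either direction for 38 of the 48 genes and within 2-fold for 47, the exception being CAT. The absolute log2 fold change was below 0.25 in 39 of the 48 (81.2%), against 77.6% of all genes. The mean over all arrays lay above that of the median gene (4.30) in 29 of the 48, and all 5 genes whose groups did not overlap were among these. The 5 make up 17.2% of the 29, against 11.2% of all genes above the median gene and 7.85% of all genes. The other 19 of the 48, which include most of the alpha and mu class glutathione transferases, are called dim here.

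Catalase carried the largest difference. CAT, which encodes the peroxisomal enzyme that turns hydrogen peroxide into water and oxygen, read 8.35, 8.58, 8.43 and 8.28 on shCD39 arrays 1 to 4, against 7.52, 7.74, 7.39 and 7.88 on shCTRL arrays 1 to 4. Every shCD39 array lay above every shCTRL array, with the smallest gap between the arrays numbered 4. The means were 8.41 ± 0.13 in shCD39 and 7.63 ± 0.22 in shCTRL (SD, n = 4 arrays each), which is 1.71-fold higher. The log2 fold change was 0.78 with a 95% interval of 0.49 to 1.06 and SE 0.13. It missed the threshold (limma adjusted p = 0.0556), and it ranked 19 of 14884 genes by p and 141 by absolute change. The exact permutation p was 0.0286, the smallest that 4 against 4 arrays allow. Without shCD39 array 4 the log2 fold change was 0.82 and passed (limma adjusted p = 0.0158), where 2.84% of all genes did. Without shCTRL array 4 it was 0.86 and passed too (limma adjusted p = 0.0287), against 0.322% of all genes. Over the 17 alternative settings it ran from 0.70 to 0.91 with adjusted p between 0.0158 and 0.208.

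**Figure D2:**
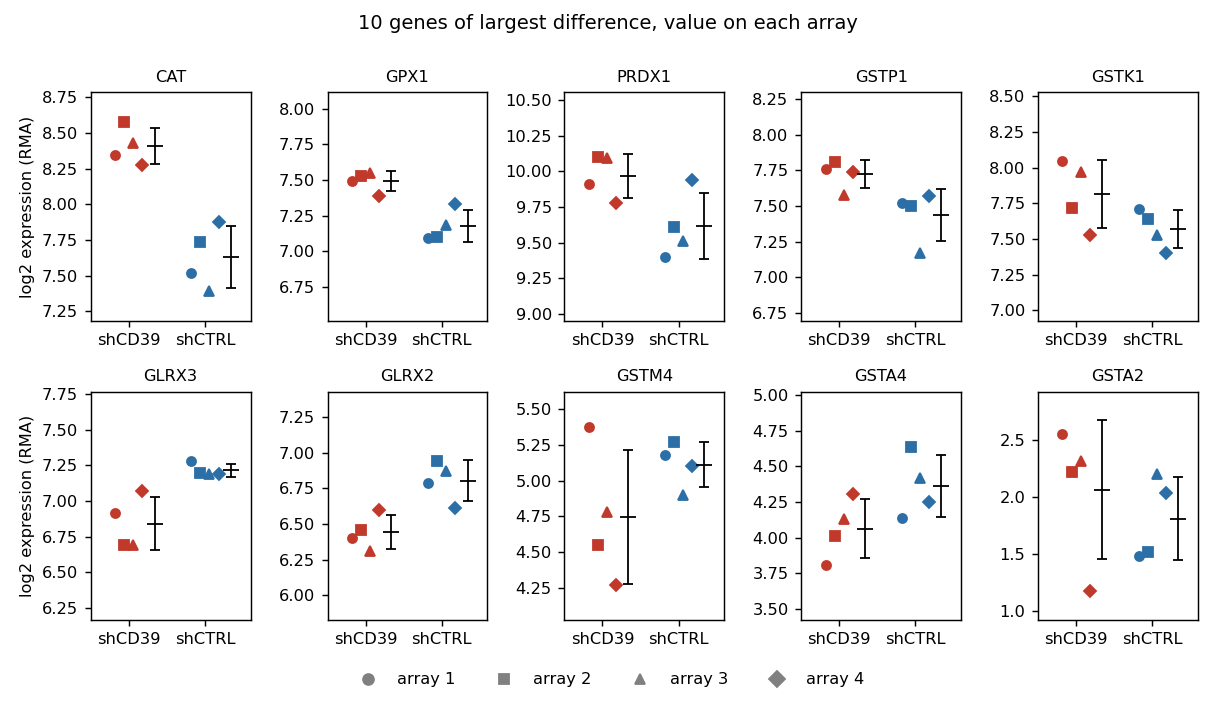
Log2 expression (RMA, y axis) on each array for the 10 genes of the set with the largest absolute log2 fold change, with shCD39 left of shCTRL. Symbols tell the array number and bars show mean ± SD (n = 4 arrays each). CAT, GPX1, GSTP1, GLRX3 and GLRX2 separate the groups, while GSTM4 and GSTA2 spread widely within shCD39.

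Other peroxisomal genes did not share the direction of catalase as a group. Of 18 measured genes of peroxisome assembly and peroxisomal oxidation, 6 had a higher mean in shCD39 (33.3%) and 12 a lower one. Their median log2 fold change was -0.13. Of the 18, 15 lay above the median gene, and of all genes above it 41.3% had a higher mean, with a median of -0.04. By limma 0 of the 18 passed the threshold, and 3 had an unadjusted p under 0.05 (16.7%). The share was 14.7% of all genes and 20.5% of genes above the median gene. ACAA1, a thiolase of peroxisomal fatty acid oxidation, had 0.28 (SE 0.11, limma adjusted p = 0.249), and PEX26, which anchors the import machinery, had -0.27 (SE 0.10, limma adjusted p = 0.260). PECR, a peroxisomal enoyl-CoA reductase, had -0.94 (SE 0.31, limma adjusted p = 0.196), and PEX10, a peroxisome assembly factor, had -0.24, or -0.41 without shCD39 array 4. PECR read 5.36, 4.84, 5.29 and 4.86 in shCD39, against 6.39, 5.79, 6.85 and 5.06 in shCTRL, so that shCTRL array 4 lay among the shCD39 values. Without both arrays numbered 4, PECR had -1.18 and passed (limma adjusted p = 0.0491), where 2.47% of all genes did.

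Among the peroxiredoxins, PRDX1 had the largest difference, short of the threshold. PRDX1, an abundant cytosolic peroxiredoxin, read 9.91, 10.10, 10.09 and 9.78 in shCD39, against 9.40, 9.61, 9.51 and 9.94 in shCTRL. The shCTRL array 4 lay above shCD39 arrays 1 and 4, so the groups overlapped. PRDX1 had a log2 difference of 0.35 (SE 0.14, limma adjusted p = 0.254, exact permutation p = 0.0857). Without both arrays numbered 4 it was 0.53, and it did not pass there (limma adjusted p = 0.0586). PRDX3, the peroxiredoxin of mitochondria, averaged 10.39 ± 0.15 in shCD39 and 10.39 ± 0.14 in shCTRL, with an interval from -0.25 to 0.25 on the log2 fold change. PRDX6, which uses glutathione as reductant, averaged 9.03 ± 0.05 in shCD39 and 9.05 ± 0.13 in shCTRL. The log2 fold change was -0.12 for PRDX2, 0.13 for PRDX4 of the endoplasmic reticulum and -0.02 for SRXN1, the sulfiredoxin that repairs over-oxidised peroxiredoxins.

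Of the glutathione peroxidases, GPX1 had the largest difference, again short of the threshold. GPX1, the main cytosolic enzyme and a selenoprotein, read 7.49, 7.53, 7.55 and 7.39 in shCD39, against 7.09, 7.10, 7.18 and 7.33 in shCTRL. The groups did not overlap, though shCD39 array 4 and shCTRL array 4 were close. Its log2 fold change was 0.31 (1.24-fold, 95% interval 0.09 to 0.54, limma adjusted p = 0.193). GPX4, which reduces lipid peroxides within membranes and so holds back ferroptosis, read 9.28, 9.18, 9.10 and 9.05 in shCD39, against 9.12, 9.18, 8.98 and 8.98 in shCTRL. Its groups overlapped, with a log2 fold change of 0.09 and an interval from -0.14 to 0.32. The difference between the changes of GPX1 and GPX4 was not tested. GPX7, an enzyme of the endoplasmic reticulum, had -0.14, and GPX2, GPX3, GPX5, GPX6 and GPX8 were dim, with log2 fold changes between -0.18 and 0.18. GPX6 had 2 probe sets, which pointed opposite ways (-0.11 for the brighter and 0.08 for the dimmer).

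The glutaredoxins GLRX3 and GLRX2 were lower on every shCD39 array than on any shCTRL array, without passing the threshold. GLRX3, a cytosolic glutaredoxin that handles iron-sulfur clusters, read 6.92, 6.69, 6.69 and 7.07 in shCD39, against 7.28, 7.20, 7.19 and 7.19 in shCTRL. The groups did not overlap, and the shCTRL arrays lay close together, with an SD of 0.05 around a mean of 7.22. The log2 fold change was -0.37 (1.29-fold lower, 95% interval -0.62 to -0.12, limma adjusted p = 0.170). GLRX2, a glutaredoxin of mitochondria and nucleus, read 6.40, 6.46, 6.31 and 6.60 in shCD39, against 6.79, 6.94, 6.87 and 6.61 in shCTRL. The arrays numbered 4 almost met, and the other 3 of each group lay further apart. For GLRX2 the difference was -0.36 on the log2 scale (SE 0.11, limma adjusted p = 0.177), and without both arrays numbered 4 it was -0.48. GLRX5, which serves mitochondrial iron-sulfur cluster assembly, averaged 5.07 ± 0.13 in shCD39 and 5.08 ± 0.16 in shCTRL. The glutaredoxin GLRX is outside the set because its symbol carries no number, and it pointed the other way. It averaged 4.48 in shCD39 and 4.14 in shCTRL, a log2 fold change of 0.34. GLRX falls outside the rule for named genes and was chosen after its values were seen.

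The 95% intervals of all 5 thioredoxin and thioredoxin reductase genes included 0. TXN, the cytosolic thioredoxin, read 10.54, 10.53, 10.54 and 10.48 in shCD39, against 10.51, 10.44, 10.53 and 10.46 in shCTRL. All 8 arrays lay close together, and the interval of the log2 fold change ran from -0.17 to 0.24. TXNRD1, the cytosolic reductase and a selenoprotein, read 6.31, 6.38, 6.02 and 6.67 in shCD39, against 6.42, 6.49, 6.44 and 6.50 in shCTRL. The shCD39 arrays spanned the tight shCTRL group, with shCD39 array 3 lowest and shCD39 array 4 highest of all 8. TXNRD3 was dim and averaged 1.85 ± 0.10 in shCD39 and 1.64 ± 0.16 in shCTRL, a log2 fold change of 0.21 (95% interval -0.04 to 0.45).

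The mitochondrial pair TXN2 and TXNRD2 varied within the shCD39 group. TXN2, the mitochondrial thioredoxin, read 7.35, 6.53, 7.19 and 6.54 in shCD39, against 6.95, 7.15, 6.91 and 6.81 in shCTRL. TXNRD2, its reductase, read 5.13, 4.42, 5.18 and 4.43 in shCD39, against 4.69, 5.09, 4.45 and 4.64 in shCTRL. In both genes shCD39 arrays 1 and 3 read high, shCD39 arrays 2 and 4 read low, and all 4 shCTRL arrays lay between these values. This split of the shCD39 arrays was not particular to the pair. In GSS, KEAP1, GSTK1 and CCS, shCD39 arrays 1 and 3 also read above arrays 2 and 4. In NFE2L2, CTH, CBS and GLO1 they read below them. The cause of the split was not tested. The log2 fold changes were -0.05 for TXN2 (95% interval -0.46 to 0.36) and 0.07 for TXNRD2 (95% interval -0.37 to 0.51).

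The regulators NFE2L2 and KEAP1 showed no difference between the groups that exceeded the spread. NFE2L2 read 6.17, 6.99, 6.41 and 6.86 in shCD39, against 6.64, 6.44, 6.67 and 6.57 in shCTRL. Here shCD39 arrays 2 and 4 were the highest and arrays 1 and 3 the lowest of all 8, with a log2 fold change of 0.03 (standard error 0.17, limma adjusted p = 0.962). KEAP1, the adaptor that marks NRF2 for degradation, read 8.17, 7.90, 8.09 and 7.80 in shCD39, against 7.69, 7.97, 7.92 and 7.97 in shCTRL. Its log2 fold change was 0.10 with an interval from -0.16 to 0.36. HMOX1, a heme-degrading enzyme often used to read NRF2 activity, was dim and averaged 4.05 ± 0.10 in shCD39 and 3.98 ± 0.16 in shCTRL. Its constitutive relative HMOX2 averaged 5.85 ± 0.25 and 5.94 ± 0.09 in the same order.

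**Figure D3:**
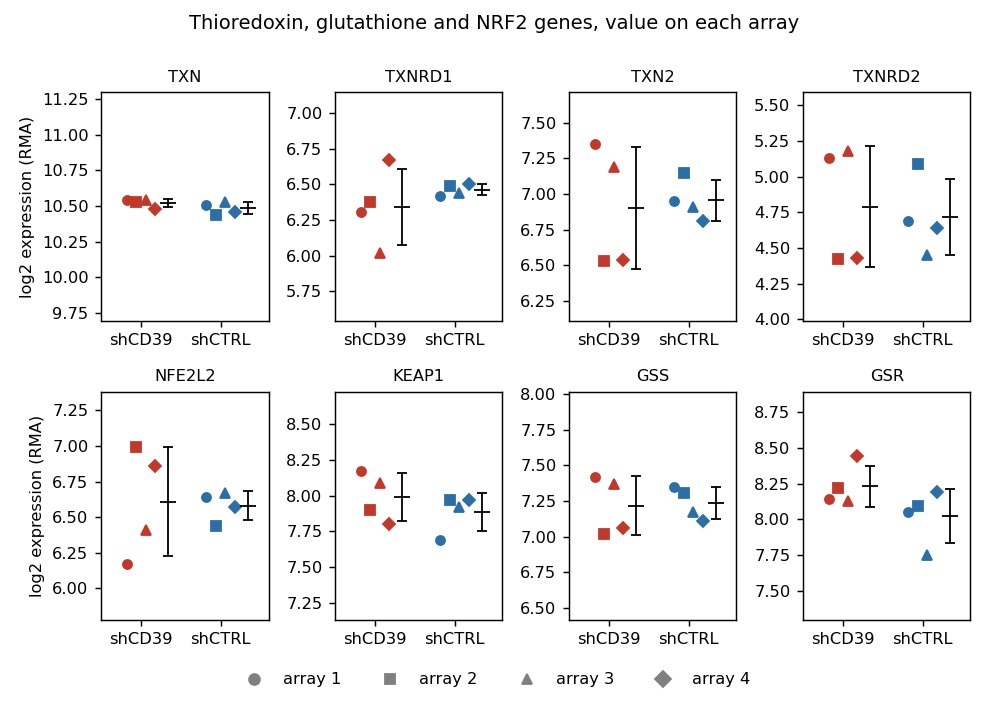
Log2 expression (RMA, y axis) on each array for thioredoxin, glutathione and NRF2 genes, with shCD39 left of shCTRL, symbols for the array number and bars for mean ± SD (n = 4 arrays each). TXN is level across all 8 arrays. In TXN2, TXNRD2, KEAP1 and GSS shCD39 arrays 1 and 3 lie above arrays 2 and 4, and in NFE2L2 they lie below.

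Of the enzymes that make and recycle glutathione, GSS and GSR were measured. GSS, glutathione synthetase, read 7.42, 7.02, 7.37 and 7.06 in shCD39, against 7.35, 7.31, 7.17 and 7.11 in shCTRL, a log2 fold change of -0.02. GSR, which reduces oxidised glutathione with NADPH, read 8.14, 8.22, 8.13 and 8.44 in shCD39, against 8.05, 8.09, 7.75 and 8.19 in shCTRL. The GSR groups overlapped by shCTRL array 4, and the log2 fold change was 0.21 (95% interval -0.06 to 0.49, limma adjusted p = 0.484).

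The soluble glutathione transferases were mixed. Of 16, 11 had a higher (68.8%, against 52.0% of all genes) and 5 a lower mean in shCD39, and their log2 fold changes had a median of 0.05. Only 5 of the 16 lay above the median gene. GSTP1, the pi class enzyme common in dividing cells, read 7.76, 7.81, 7.58 and 7.74 in shCD39, against 7.52, 7.50, 7.17 and 7.57 in shCTRL. The groups stood just apart, shCD39 array 3 and shCTRL array 4 being nearest, with a log2 fold change of 0.28 (1.21-fold, 95% interval 0.02 to 0.54, limma adjusted p = 0.304). GSTK1, the kappa class enzyme of mitochondria and peroxisomes, read 8.05, 7.72, 7.97 and 7.53 in shCD39, against 7.71, 7.64, 7.53 and 7.40 in shCTRL. These groups overlapped by shCD39 array 4, with a log2 fold change of 0.25 (limma adjusted p = 0.431). GSTO1, the omega class enzyme, averaged 5.59 ± 0.15 in shCD39 and 5.62 ± 0.22 in shCTRL.

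GSTM4 and GSTA4 had the largest negative differences among the transferases, short of the threshold. GSTM4, of the mu class, read 5.38, 4.55, 4.78 and 4.27 in shCD39, against 5.18, 5.27, 4.90 and 5.10 in shCTRL. The shCD39 arrays held both the highest and the lowest of the 8 values, and the log2 fold change was -0.37 (SE 0.20, limma adjusted p = 0.439), or -0.58 without shCD39 array 1 and -0.21 without shCD39 array 4. GSTA4, which conjugates products of lipid peroxidation, read 3.81, 4.01, 4.13 and 4.31 in shCD39, against 4.14, 4.64, 4.42 and 4.25 in shCTRL. Its groups overlapped, with a log2 fold change of -0.29 (limma adjusted p = 0.368). GSTA2 was dim and read 2.55, 2.22, 2.31 and 1.17 in shCD39, against 1.48, 1.52, 2.20 and 2.03 in shCTRL. The log2 fold change of GSTA2 was 0.25 and ran from 0.09 without shCD39 array 1 to 0.55 without shCD39 array 4. It was 0.15 without shCTRL array 1, 0.16 without shCTRL array 2 and 0.38 without shCTRL array 3. Genes of the alpha class, and likewise of the mu class, are close in sequence, so probes may share signal between them and single values there are uncertain.

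None of the 3 microsomal transferases passed the threshold (limma adjusted p from 0.566 to 0.773). All 3 had a higher mean in shCD39, as did 52.0% of all genes. MGST1 averaged 6.60 ± 0.10 in shCD39 and 6.43 ± 0.21 in shCTRL, with a log2 fold change of 0.17. MGST2 had 0.13 and MGST3 0.10, and the 95% intervals of all 3 included 0.

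The 8 selenoproteins of the set can be read together, since they share the insertion of selenocysteine. They are GPX1, GPX2, GPX3, GPX4, GPX6 and the 3 thioredoxin reductases, and 5 had a higher and 3 a lower mean in shCD39, while the median of their log2 fold changes was 0.05. Of 8 measured genes for selenoprotein synthesis, 3 had a higher and 5 a lower mean, and the median was -0.08. By limma 0 of these passed, and 1 had an unadjusted p under 0.05 (12.5%, against 14.7% of all genes). All 8 lay above the median gene, and 20.5% of all genes above it had such a p. SEPHS1, a relative of the selenophosphate synthetase, had the largest difference at -0.54 (SE 0.17, limma adjusted p = 0.178). Without shCD39 array 4 it was -0.67 and passed (limma adjusted p = 0.0498), where 2.84% of all genes did. SCLY, which frees selenium from selenocysteine, had -0.29, SECISBP2L 0.19 and TRNAU1AP -0.16.

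The list of cysteine and glutathione supply and turnover had 14 measured genes, of which 4 had a higher and 10 a lower mean in shCD39, with a median of -0.14 and 0 past the threshold by limma. At an unadjusted limma p under 0.05 there were 6 of these 14 (42.9%), against 14.7% of all genes. Of the 14, 12 lay above the median gene, and 20.5% of all genes above it had such a p. CTH, which makes cysteine from cystathionine, read 4.11, 5.74, 3.94 and 6.15 in shCD39, against 7.34, 7.50, 7.29 and 6.23 in shCTRL (log2 difference -2.10, limma adjusted p = 0.0908). CBS, the enzyme before it, read 4.37, 5.05, 4.31 and 5.31 in shCD39, against 6.09, 6.17, 6.10 and 5.41 in shCTRL (log2 fold change -1.18, limma adjusted p = 0.0805). In both genes the arrays numbered 4 nearly met. SHMT2, which makes glycine in mitochondria, had -0.84 (SE 0.17, limma adjusted p = 0.0783). GLO1, the glyoxalase that uses glutathione to clear methylglyoxal, had -0.77 (SE 0.28, limma adjusted p = 0.232) and overlapped between the groups. Without shCD39 array 4, 5 genes of the list passed, all lower (CTH, CBS, SHMT2, GGCT and GLO1), at a setting where 2.84% of all genes passed. Without shCTRL array 4, CBS and SHMT2 passed, where 0.322% of all genes did. GGCT falls outside the rule for named genes and was chosen after its values were seen.

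**Figure D4:**
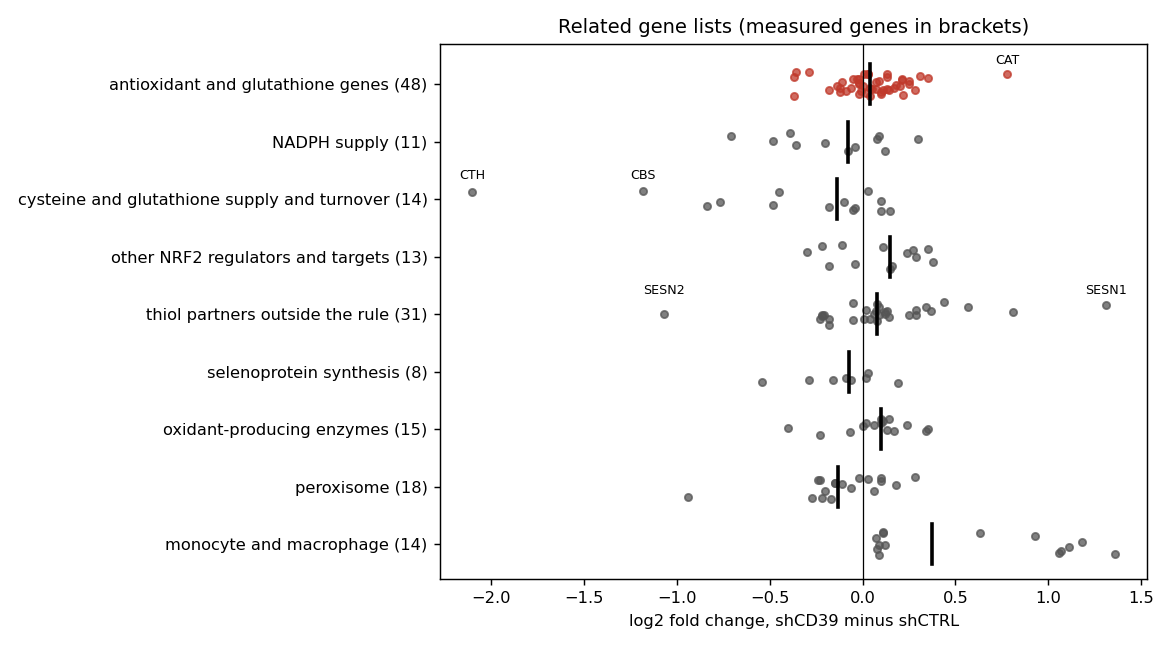
Log2 fold change (shCD39 minus shCTRL, x axis) of each measured gene in the set and in related lists, with black bars at the medians and the number of measured genes in brackets. The set lies around 0.04 with CAT to the right, while CTH and CBS reach -2.10 and -1.18, SESN1 1.31 and SESN2 -1.07. The monocyte markers at the bottom all lie above 0.

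Among the sestrins and other thiol partners, SESN1 rose. SESN1, a stress-induced member of the sestrin family, was the single gene past the threshold in the 7 related lists, which held 110 measured genes. It read 7.71 to 8.47 in shCD39, against 6.44 to 7.26 in shCTRL, so the groups stood apart (2.48-fold higher, limma adjusted p = 0.0432). It passed without shCD39 array 4 (limma adjusted p = 0.00661). It did not pass when any of shCD39 arrays 1 to 3 or shCTRL arrays 1 to 3 was left out, with adjusted p from 0.101 to 0.193. SESN2 pointed the other way and read 6.65, 5.91, 6.54 and 6.73 in shCD39, against 7.83, 7.79, 7.71 and 6.78 in shCTRL (log2 fold change -1.07, limma adjusted p = 0.0939). MSRB1, a selenoprotein that reduces oxidised methionine, read 6.13, 6.27, 5.75 and 5.95 in shCD39, against 4.97, 5.17, 5.07 and 5.64 in shCTRL (log2 fold change 0.81, limma adjusted p = 0.0805). CCS, the copper chaperone of superoxide dismutase, had 0.57 (SE 0.20, limma adjusted p = 0.219). Of the 31 measured genes of this list, 22 had a higher and 9 a lower mean, with a median of 0.08, and 4 passed without shCD39 array 4 (SESN1, SESN2, MSRB1 and MSRB2), where 2.84% of all genes did. Without shCTRL array 4, SESN1, SESN2 and MSRB1 passed, against 0.322% of all genes.

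The remaining related lists held 0 genes past the threshold by limma with all arrays. Unadjusted p-values under 0.05 were found for 2 genes of the NRF2 list (15.4%), 4 of NADPH supply (36.4%) and 1 of the oxidant-producing enzymes (6.67%), against 14.7% of all genes. Of genes above the median gene 20.5% had such a p. In NADPH supply 10 of the 11 measured genes lay above it, and in the NRF2 list 7 of 13. Of 13 measured NRF2 regulators and targets outside the set, 8 had a higher and 5 a lower mean in shCD39, with a median of 0.15. SQSTM1, the autophagy receptor p62 that binds KEAP1, read 6.04, 6.21, 6.01 and 5.91 in shCD39, against 5.79, 5.65, 5.68 and 5.67 in shCTRL. All shCD39 arrays lay above all shCTRL arrays, a difference of 0.35 on the log2 scale (SE 0.10, limma adjusted p = 0.168). TRIM16 had 0.38, CBR1, a carbonyl reductase, 0.29, and BLVRB, a biliverdin reductase, -0.30. Of 11 measured genes of NADPH supply, 4 had a higher and 7 a lower mean, with a median of -0.08. MTHFD1L, of mitochondrial folate metabolism, had -0.71 (SE 0.15, limma adjusted p = 0.0877). Without shCD39 array 4 it was -0.85 and passed (limma adjusted p = 0.00952), where 2.84% of all genes did. RPIA and RPE, of the pentose phosphate pathway, had -0.48 and -0.39, and NADK2, the mitochondrial NAD kinase, had -0.36. Of 15 measured oxidant-producing enzymes, 12 had a higher (80.0%) and 3 a lower mean, with a median of 0.10. Only 3 of the 15 lay above the median gene. Higher means were found for 52.0% of all genes and for 78.9% of the dim genes of the set. In that list MPO, the myeloperoxidase of granules, read 6.54, 7.67, 6.26 and 7.67 in shCD39, against 7.04, 7.93, 6.59 and 8.19 in shCTRL. It spread over more than 1 log2 unit within each group, with a log2 fold change of -0.40, or -0.61 without shCD39 array 4. In both groups arrays 2 and 4 read above arrays 1 and 3. Each shCD39 array read below the shCTRL array of its number. The oxidases NOX3 and NOX4 had 0.35 and 0.24 and were dim, as was the monoamine oxidase MAOB at 0.34. Without shCD39 array 4, MAOB had 0.55 and passed (limma adjusted p = 0.0345), against 2.84% of all genes.

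By array, the set as a whole did not separate the groups. The median deviation of the 48 genes from the shCTRL mean was 0.16, 0.04, 0.05 and -0.01 on shCD39 arrays 1 to 4, against -0.02, 0.07, -0.07 and 0.01 on shCTRL arrays 1 to 4. The shCD39 array 1 was highest, and the other shCD39 arrays lay inside the shCTRL range. The median SD within a group was 0.20 in shCD39 and 0.16 in shCTRL over the 48 genes, and 0.19 and 0.15 over all genes in the same order.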

How the data were processed

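Gene expression was measured on 8 Affymetrix arrays of MOLM-14 cells, 4 per hairpin, from 100 ng of total RNA each. Per the submitters' processing notes, the deposited log2 values come from RMA as implemented in oligo, whose version, like the array design and genome build, is not given in the sources used here. RMA corrects background, sets all arrays to 1 distribution and summarises probes, so each difference is measured against the bulk of the array.

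The 53617 probe sets were named through the platform annotation and Entrez IDs in a RefSeq table (GRCh38.p14), and 16098 had a symbol, each exactly 1. Each of 14884 genes took its values from the probe set of highest mean. Groups were taken from sample titles and compared with limma 3.58.1 (lmFit, eBayes) in R 4.3.3, 2-sided, with Benjamini-Hochberg adjustment over all genes and a threshold of 0.05, without a filter on dim genes. Fold changes are shCD39 minus shCTRL. The exact permutation test was 2-sided over arrays. The procedure was tested on simulated data with 200 genes changed. It recovered 35.8% of log2 changes of 0.5, 89.6% of 1.0 and 98.5% of 2.0, with 7 false calls. The simulated noise was independent for each gene and array, so it held no deviation shared across genes. These shares therefore do not bound what was missed in the real data, where CTH at -2.10 did not pass. Arrays carry no read depth, and their number limits the precision.

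The members, lists and tests were chosen with earlier results of these data known. Values on every array were given for members past the threshold, without overlap, with an unadjusted p under 0.05 or among the 10 largest differences, and up to 4 genes were named per related list. CD68, CD14, S100A9, TYROBP, GGCT, MSRB2, GLRX and the array values of other members fall outside this rule. As alternatives, the values were normalized again (quantile, median centring, cyclic loess), dim genes were filtered, probe sets of a gene were averaged, the fit used an intensity trend with robust prior, weights per array or a block for the replicate number, and arrays were left out. Counts over related lists, of unadjusted p and of direction were added as results after seeing the data. Figures used matplotlib 3.10.9.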

Additional observations from a re-analysis of the deposited data

Results flagged for a closer look

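In each gene of the set and each group of 4 arrays, the highest and the lowest value were compared with the others by Dixon's criterion, which chance alone exceeds in about 5% of groups. Of 96 groups, 6 held such an array, which is near that share. GSTA1 read 2.55 on shCTRL array 1, against 3.79 to 3.82 on the other shCTRL arrays. On that same array SRXN1 read 5.67, against 5.30 to 5.34, and TXNRD3 read 1.88, against 1.55 to 1.58. GSTM2 read 4.76 on shCD39 array 1, against 4.19 to 4.24 on the other shCD39 arrays. GSTM3 read 2.45 on shCTRL array 4, against 1.81 to 1.92, and MGST1 read 6.11 on shCTRL array 3, against 6.52 to 6.55. GSTA1, GSTM3 and TXNRD3 are dim genes.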

How the results depend on the processing

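The median log2 fold change of the set stayed within 0.067 of its main value under all 17 alternatives. That limit is the SD of the set's median between arrays of a group, averaged over both groups. With the filter on dim genes the median covers only the 29 genes of the set above the median gene. The log2 fold changes of the 10 genes given in full kept their sign in every alternative in which they were tested, and so did that of ENTPD1, from -0.94 to -0.53. Of the 48 genes, 19 turned sign in some alternative, none with a main difference above 0.20. CAT was the single gene of the set that passed anywhere: 1 gene passed with the filter on dim genes, the intensity trend, array weights and without both arrays numbered 4, and 0 to 1 when single arrays were left out (1 without shCD39 array 4 and without shCTRL array 4). Over all genes, against 14, the count was 5 with quantile normalization, 64 with the filter, 22 with the trend, 124 with array weights, 368 without both arrays numbered 4 and 0 to 423 when single arrays were left out. With the replicate number as a block it was 6, and 0 in the set. Over all genes, the numbers did not pair the arrays: same-numbered arrays deviated with correlations from -0.037 to 0.062. Only 1 of 4 shCD39 arrays correlated best with its own number. Pairing within a part of the genes was not tested. The cause of the shifts in these counts was not tested. SESN1 did not pass in 8 of 17 alternatives. RMA removes differences in total RNA, and dim genes lie close to the background.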
